A study of Rattus norvegicus with 6 samples.

Results

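Cellular senescence is a lasting exit from the cell cycle, and the genes described here are those that impose it, report it or fade with it. They are the cyclin-dependent kinase inhibitors Cdkn1a, Cdkn2a, Cdkn2b and Cdkn1c, Mdm2, the inhibitor of the stress-response factor p53, the p53-responsive genes Gdf15 and Gadd45a, and the nuclear lamina gene Lmnb1. Members were chosen by gene name, 8 of the 30562 genes counted.

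In a stressed cell p53 escapes degradation by Mdm2 and switches on Cdkn1a, whose product p21 blocks the kinases that drive entry into S phase. Cdkn2a and Cdkn2b encode inhibitors of Cdk4 and Cdk6 that keep the retinoblastoma proteins active, and Cdkn2a also encodes ARF, which binds Mdm2 and so spares p53. Senescent cells tend to lose lamin B1 and to secrete cytokines, proteases and growth factor binding proteins, and such cells are known to gather in degenerating intervertebral discs.

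Bulk RNA was measured in 6 libraries of rat intervertebral disc tissue, 3 labelled AF-PTK@LEV@SPP1 and 3 controls. By the study's methods the animals were male Sprague-Dawley rats aged 12 weeks, wild type per the labels, with a tail disc punctured by a needle. AF-PTK@LEV@SPP1 is a liposome fused with bacterial outer membrane vesicles that carries an siRNA against Spp1 and a peptide for the annulus fibrosus on a cleavable linker, injected into the disc at 1 mg/kg of siRNA in 10 μL. The methods give treatment over 8 weeks, begun 24 h after the puncture, with PBS for the controls, while the labels give 14 days, no treatment for the controls, and macrophages sorted from mice. The libraries held 17942989, 16565291 and 17489851 counts in control replicates 1, 2 and 3, and 17074981, 15560728 and 17855184 in replicates 1, 2 and 3 labelled AF-PTK@LEV@SPP1, called labelled-treated below.

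The labels were checked against the siRNA target and against markers of the tissue. Spp1 stood at 8114, 4408 and 4414 normalized CPM (the counts of a gene after scaling for library size) in control replicates 1, 2 and 3, and at 8047, 6893 and 8451 in the labelled-treated libraries. The siRNA target thus showed no reduction under the treated label, and every direction given here follows the labels alone. The study's materials describe the siRNA as directed at the mouse gene, and its match to rat Spp1 was not tested here. The fibrous matrix gene Col1a1 had 31887 to 64018 CPM and the cartilage collagen gene Col2a1 13858 to 31944, genes that mark matrix-forming disc cells and not macrophages. Of the notochord markers, Noto was at 0 counts in the 6 libraries, while Tbxt had 142.0, 17.4 and 17.3 CPM in the controls and 756, 308 and 332 in the labelled-treated libraries.

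Control replicates 2 and 3 differed by little more than sampling noise. Their counts varied 1.33 times as much as counting alone would give, and 16 of 14393 genes (0.111%) differed, whereas the remaining pairs inside a group gave ratios of 51.3 to 107. The pair was counted as 1 sample, by summing its counts in the test and by its mean elsewhere, which left 2 distinct control samples against 3 labelled-treated ones. At this size an exact permutation test cannot give a two-sided p below 0.1. The labels do not say whether the libraries came from separate rats. The study's methods describe independent animals within each group, which does not explain how near control replicates 2 and 3 are, and the p-values measure the spread between these samples alone.

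Over the whole table, edgeR's quasi-likelihood test with Benjamini-Hochberg adjustment called 575 of 15537 genes (3.7%) at an adjusted p under 0.05, 175 higher and 400 lower in the labelled-treated libraries. With the 6 libraries kept apart it called 2727 of 15042 (18.1%). The count fell to 113 without labelled-treated replicate 1. Leaving out control replicate 1 left 1 distinct control sample without a replicate, so the calls of that fit are not given. No gene was called without labelled-treated replicate 2 or without labelled-treated replicate 3, although 3109 and 2699 genes then had an unadjusted p under 0.05, so no call below held without either library. DESeq2 and limma-voom called 2572 and 454 genes on the same 5 samples.

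All 8 members passed the filter on low counts, and edgeR called 0 of them, against 3.7% of all genes tested. An unadjusted p under 0.05 was reached by 3 members (Mdm2, Gadd45a and Gdf15), against 25.4% of all genes. The same 3 had every labelled-treated library below every distinct control sample, a pattern shown by 21.9% of all genes, and no member had every labelled-treated library above, as did 23.9%. DESeq2 and limma-voom also called 0 members, and edgeR on the 6 libraries 0 of the 7 it tested, against 18.1% of all genes. The median log2 fold change of the members was -0.27 beside 0.05 for all genes, and 6 of the 8 estimates lay below 0. In bulk tissue, fewer cells of a type and less RNA per cell cannot be told apart.

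**Figure D1:**
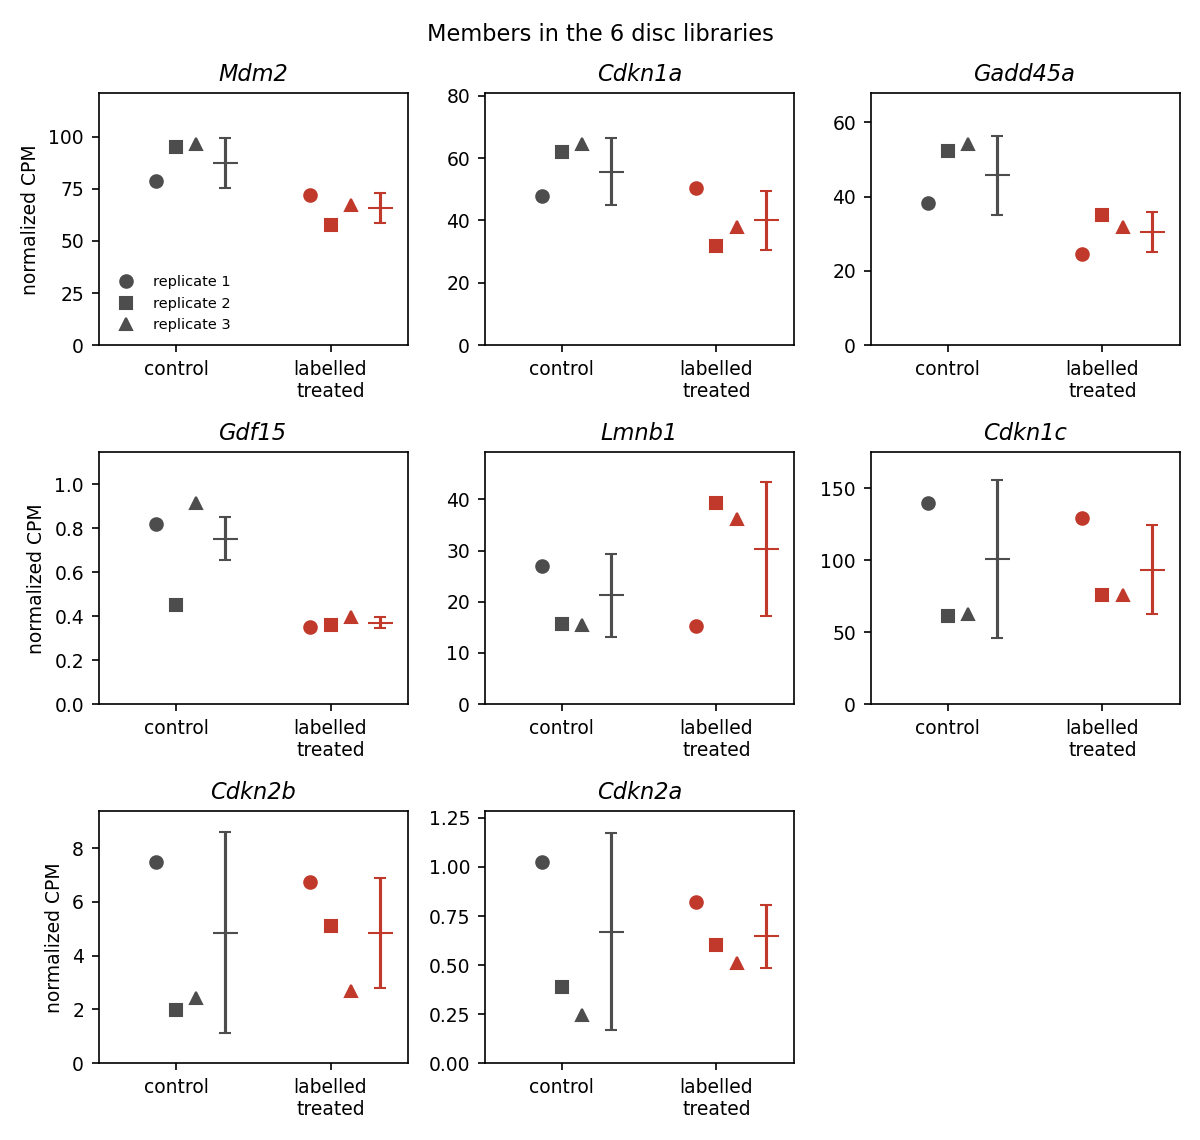
Normalized CPM of the 8 members in each library, with the mean and SD over 2 distinct control samples (replicates 2 and 3 as 1) and 3 labelled-treated samples beside the points. Mdm2, Gadd45a and Gdf15 do not overlap between the groups, whereas Cdkn1c, Cdkn2b and Cdkn2a are highest in replicate 1 of both groups.

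Mdm2, the ubiquitin ligase that marks p53 for degradation and is itself switched on by p53, was lower in the labelled-treated libraries without passing the test. It had 78.8, 95.02 and 96.6 CPM in the controls and 71.9, 57.8 and 67.3 in the labelled-treated libraries. The lowest control and the highest labelled-treated library, both replicate 1, were close to each other without overlapping. edgeR put the log2 difference at -0.42 (standard error 0.15), with an adjusted p of 0.172.

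Other regulators of p53 and the kinases that signal DNA damage gave 0 calls among 17 tested genes in edgeR, DESeq2 and limma-voom, with 4 at an unadjusted p under 0.05 in edgeR. Of the 17 estimates 6 lay below 0, and the median log2 fold change was 0.22. Mdm4, a relative of Mdm2 that holds p53 inactive, had 25.2, 27.9 and 31.0 CPM in the controls and 37.4, 35.7 and 33.8 in the labelled-treated libraries. Its estimate thus had the opposite sign to that of Mdm2, with no overlap of the groups (0.37 on the log2 scale with a standard error of 0.12, and an adjusted p of 0.150 in edgeR). The deacetylase gene Sirt1 (0.32) and the forkhead factor gene Foxo4 (0.77) also had positive log2 fold changes, with adjusted p of 0.138 each from edgeR.

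Cdkn1a (chromosome 20, 7149217 to 7159585 by the coordinates deposited with the counts, whose build is not named) had 48.0, 61.8 and 64.6 CPM in control replicates 1, 2 and 3. The labelled-treated libraries had 50.5, 31.7 and 37.8 CPM. The groups overlapped, because labelled-treated replicate 1 lay above control replicate 1, while the remaining labelled-treated libraries lay below all controls. edgeR gave a log2 difference of -0.48 (standard error 0.24, 95% interval -1.09 to 0.12) at an adjusted p of 0.270, and the exact permutation p was 0.3. The interval spans 0, so a change of Cdkn1a was not shown in either direction.

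The genes whose pattern over the 5 distinct samples was most like that of Cdkn1a were Cpne8, Itgb1, Gfpt2, Lix1l and P4hb. Their centred log2 CPM differed from that of Cdkn1a by a root mean square of 0.0421 to 0.0481, against a median of 0.391 over 10056 candidate genes. Itgb1, the integrin chain through which cells hold fibrillar matrix, had 757, 1050.3 and 1067 CPM in the controls and 803, 529 and 590.5 in the labelled-treated libraries. P4hb encodes a subunit of the enzyme that hydroxylates collagen. Like Cdkn1a, these genes were lowest in labelled-treated replicate 2 and had close values in both replicates numbered 1.

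Gadd45a, a p53-responsive gene whose product takes part in growth arrest and DNA repair, had 38.3, 52.2 and 54.2 CPM in the controls. The labelled-treated libraries had 24.6, 35.1 and 31.9 CPM. The groups did not overlap, although control replicate 1 lay closer to the labelled-treated libraries than to the other controls. This was a log2 difference of -0.59 (standard error 0.22), with an adjusted p of 0.175 in edgeR. With the 6 libraries kept apart and a block for the replicate number, edgeR gave an adjusted p of 0.0482.

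Gdf15, a secreted stress hormone of the TGF-beta family, was near the limit of what this depth can measure. It had 16, 7 and 15 counts in the controls and 6, 6 and 7 in the labelled-treated libraries, or 0.821, 0.450 and 0.915 against 0.353, 0.362 and 0.398 CPM. The counts of control replicate 2 and labelled-treated replicate 3 were equal, and the groups were separated by scaling alone at that point. The 95% Poisson intervals overlapped as well, from 9.15 to 26.0 counts in control replicate 1 and from 2.81 to 14.4 in labelled-treated replicate 3. edgeR estimated -1.02 on the log2 scale (standard error 0.40) at an adjusted p of 0.194, and fits that kept the 6 libraries removed Gdf15 as too low. The gene also overlaps Lrrc25 on the opposite strand, with 409, 252 and 247 counts in the controls and 120, 191 and 189 in the labelled-treated libraries, and how strand was used in counting is not given in the sources used here.

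Relatives and stress partners of Gadd45a went in both directions. edgeR called 0 of 8 (3 at an unadjusted p under 0.05), limma-voom 0, DESeq2 2 and edgeR on the 6 libraries 2 (Chac1 and Gadd45g). Of the 8 estimates 4 lay below 0, and the median was -0.06 on the log2 scale. Gadd45g, which also restrains the cell cycle, had 21.7, 41.5 and 37.8 CPM in the controls and 16.1, 14.9 and 14.9 in the labelled-treated libraries (-1.01 on the log2 scale, with an adjusted p of 0.102 in edgeR). The stress factor gene Atf3 had an estimate of -1.21 on the same scale, with an adjusted p of 0.173 in edgeR. Chac1, a target of the unfolded protein response, had 3.49, 2.96 and 4.03 CPM in the controls and 6.76, 9.52 and 8.20 in the labelled-treated libraries, and its adjusted p of 0.0564 from edgeR missed the threshold.

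Of 33 further p53 targets tested, edgeR called 1 higher (Rrm2b) and 2 lower (Dram1 and Plk3), limma-voom called 3 and DESeq2 13. An unadjusted p under 0.05 was reached by 18 of the 33, against 25.4% of all genes, and the median log2 fold change was -0.05 beside 0.05 for all genes. Every labelled-treated library lay below every distinct control for 15 of the 33 and above for 8, against 21.9% and 23.9% of all genes. With the 6 libraries kept apart, 4 were called higher and 11 lower.

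Dram1, which links p53 to autophagy, had 29.8, 41.6 and 42.7 CPM in the controls and 11.04, 9.28 and 12.8 in the labelled-treated libraries. Plk3, a stress-responsive kinase gene, had 9.90, 11.4 and 11.4 CPM in the controls and 3.64, 3.98 and 5.01 in the labelled-treated libraries. Rrm2b, the p53-inducible subunit that supplies deoxynucleotides for DNA repair, went the other way, with 19.04, 17.9 and 17.9 CPM against 33.8, 32.1 and 36.3. Each of the 3 genes was separated between the groups by more than the spread within them. Their log2 fold changes were -1.71 (standard error 0.22) for Dram1, -1.35 (0.21) for Plk3 and 0.88 (0.12) for Rrm2b, with adjusted p of 0.0303, 0.0426 and 0.0316 from edgeR. Without labelled-treated replicate 1 none of the 3 was called (adjusted p of 0.0687, 0.0800 and 0.0715).

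**Figure D2:**
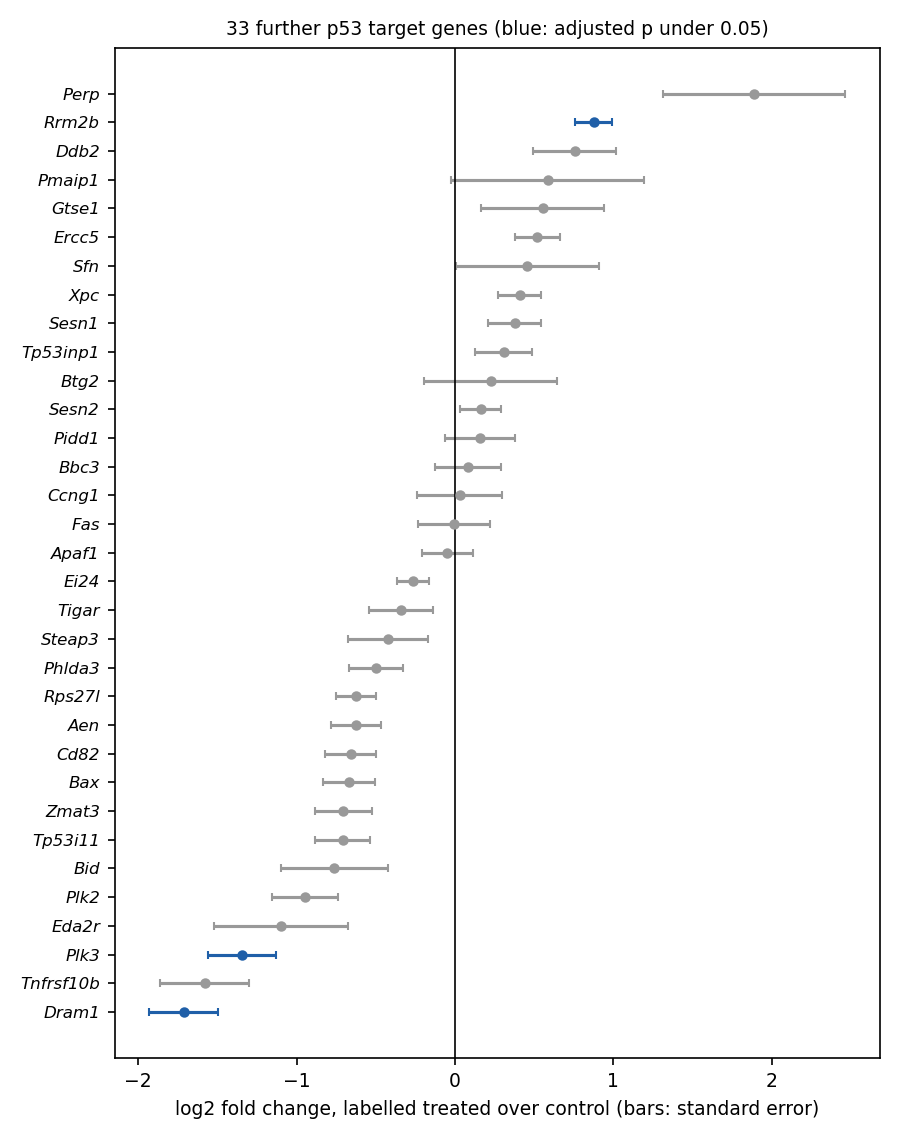
Log2 fold change (labelled-treated over control) of 33 further p53 target genes from edgeR on the 5 distinct samples, with standard errors as bars and genes at an adjusted p under 0.05 in blue. Estimates run from -1.71 for Dram1 to 1.89 for Perp, and the called genes are Dram1, Plk3 and Rrm2b.

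Cdkn2a and Cdkn2b, both INK4 inhibitors, gave no separation between the groups. Cdkn2a had 20, 6 and 4 counts in control replicates 1, 2 and 3 and 14, 10 and 9 in the labelled-treated libraries, or 1.03, 0.386 and 0.244 against 0.822, 0.603 and 0.512 CPM. Its highest and its lowest library were both controls. The 95% Poisson interval was 12.2 to 30.9 counts in control replicate 1 and 1.09 to 10.2 in control replicate 3. edgeR estimated a log2 difference of -0.02 (standard error 0.64, 95% interval -1.64 to 1.60) at an adjusted p of 0.988, so that a difference within this wide interval was not detectable among these samples. The counts are per gene and do not separate the INK4a transcript of Cdkn2a from that of ARF.

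Cdkn2b, its neighbour on chromosome 5, had 7.49, 1.99 and 2.44 CPM in the controls and 6.75, 5.12 and 2.68 in the labelled-treated libraries. Cdkn1c, which encodes the inhibitor p57 and is an imprinted gene, had 139.8, 61.1 and 62.7 CPM in the controls and 128.9, 75.7 and 75.5 in the labelled-treated libraries. In both genes, as in Cdkn2a, replicate 1 was the highest library of each group and the groups overlapped. Control replicate 1 exceeded the mean of control replicates 2 and 3 by 3.26 times for Cdkn2a, 3.38 times for Cdkn2b and 2.26 times for Cdkn1c. The log2 fold changes were 0.00 (standard error 0.63) for Cdkn2b and -0.12 (0.42) for Cdkn1c, with adjusted p of 0.998 and 0.886 from edgeR.

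These estimates moved most when control replicate 1 was left out. Without it, with 1 distinct control sample left, they were 1.01 for Cdkn2a, 1.11 for Cdkn2b and 0.58 for Cdkn1c. Without labelled-treated replicate 1 they were -0.26, -0.35 and -0.46. Leaving out labelled-treated replicate 2 gave 0.03 for Cdkn2a, -0.03 for Cdkn2b and 0.02 for Cdkn1c, and leaving out labelled-treated replicate 3 gave 0.12, 0.30 and 0.02. Without control replicate 2 only Cdkn2b changed sign, to -0.04.

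The genes most like Cdkn2a over the 5 distinct samples were Tmeff1, Irx3, Alcam, Bcar3 and Pth1r, with a root mean square difference of 0.0677 to 0.160 in centred log2 CPM, against a median of 0.551 over 10057 candidates. Pth1r, the receptor for parathyroid hormone in bone and cartilage, had 141.6, 72.3 and 71.3 CPM in the controls and 136.2, 110.2 and 82.1 in the labelled-treated libraries. Because Cdkn2a had few counts, this likeness is loose, and 3 of the 5 genes recurred with a smaller prior count. The summed level of the osteoblast markers, whose most abundant gene was Ibsp, was also highest in control replicate 1, although Bglap was higher in labelled-treated replicates 2 and 3. Gene by gene, control replicate 1 exceeded the mean of control replicates 2 and 3 by 1.88 times (Ibsp) to 50.5 times (Bglap). The 7 osteoblast genes summed to 4665, 1837 and 1837 CPM in the controls and 2215, 3185 and 1849 in the labelled-treated libraries. edgeR called 0 of the 7, and their part in the pattern of the INK4 genes was not tested.

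Of the inhibitors outside the members, edgeR called 0 of 4 (1 at an unadjusted p under 0.05), DESeq2 and limma-voom also called 0, and all 4 estimates lay above 0 with a median log2 fold change of 0.27. Cdkn2c, which encodes the INK4 inhibitor p18, had 22.1, 15.9 and 15.1 CPM in the controls and 25.4, 38.2 and 29.6 in the labelled-treated libraries, without overlap. Its log2 fold change was 0.72 (standard error 0.24), with an adjusted p of 0.155 from edgeR, or 0.0460 with the 6 libraries kept apart. Cdkn1b (p27) and Cdkn2d had estimates of 0.23 and 0.25 and overlapped between the groups, and that of Cdkn2d was -0.08 without labelled-treated replicate 2.

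The imprinted genes around Cdkn1c differed in the order of the controls. H19, a noncoding RNA of the same cluster, had 447, 1195 and 1197 CPM in the controls and 101.9, 230.7 and 126.0 in the labelled-treated libraries (-2.44 on the log2 scale with a standard error of 0.54, and an adjusted p of 0.0772 in edgeR). Igf2, the growth factor gene beside it, had 37.1, 153.5 and 147.3 CPM against 26.4, 21.7 and 37.1. Tssc4 had 55.5, 79.1 and 76.0 CPM against 62.4, 42.2 and 54.3. Control replicate 1 was the lowest control in these 3 genes, the reverse of Cdkn1c, and the highest in Slc22a18 and Nap1l4. edgeR called 0 of 7 tested genes of the neighbourhood (2 at an unadjusted p under 0.05), limma-voom 0, DESeq2 2, and edgeR on the 6 libraries 1; the median on the log2 scale was 0.00.

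The G1 cyclins, their kinases, the retinoblastoma (pocket) proteins and the E2F factors gave 1 call in each direction among 15 tested genes. The median of these 15 on the log2 scale was 0.21. Cdk4, the kinase that INK4 proteins bind, fell from 78.1, 73.0 and 69.8 CPM in the controls to 48.8, 47.1 and 50.8 in the labelled-treated libraries. Rbl2, a retinoblastoma relative (p130) that represses cell cycle genes in resting cells, rose from 55.9, 53.4 and 55.0 to 84.6, 95.5 and 85.1 CPM. Both had narrow ranges in each group and no overlap. The log2 fold changes were -0.62 (standard error 0.10) for Cdk4 and 0.67 (0.11) for Rbl2, with adjusted p of 0.0443 and 0.0444 from edgeR. Neither was called without labelled-treated replicate 1 (0.0832 and 0.0821). Cdk4 also missed the threshold with limma-voom (0.0512), upper quartile factors (0.0569), the replicate block (0.0592) and without control replicate 2 (0.0505), and Rbl2 did so without the filter on low counts (0.0585). The D cyclin gene Ccnd2 had 142.6, 143.9 and 140.6 CPM in the controls and 386, 204 and 252 in the labelled-treated libraries, with an adjusted p of 0.134 from edgeR.

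Lmnb1, whose loss is a common mark of senescent cells, varied more within the labelled-treated group than between the groups. It had 27.0, 15.7 and 15.4 CPM in control replicates 1, 2 and 3, and 15.3, 39.4 and 36.3 in labelled-treated replicates 1, 2 and 3. Labelled-treated replicates 2 and 3 were the highest libraries, and labelled-treated replicate 1 was as low as control replicates 2 and 3. edgeR estimated 0.50 on the log2 scale (standard error 0.47, 95% interval -0.68 to 1.69), with an adjusted p of 0.536.

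Genes of the cell cycle were also high in labelled-treated replicates 2 and 3, with a wider range than Lmnb1 in their sum. The 20 proliferation genes summed to 561, 367 and 365 CPM in the controls and 281, 1124 and 791 in the labelled-treated libraries. Mki67, the gene of the Ki-67 proliferation marker, had 85.7, 46.7 and 46.6 CPM in the controls and 44.9, 361 and 209.6 in the labelled-treated libraries. Of the 19 tested genes, 19 were highest in labelled-treated replicate 2 and 15 lowest in labelled-treated replicate 1, as were 3387 and 3083 of the 15537 genes tested. edgeR called 0 of the 19, with 0 at an unadjusted p under 0.05, and DESeq2, limma-voom and edgeR on the 6 libraries also called 0. Their median log2 fold change was 0.46.

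**Figure D3:**
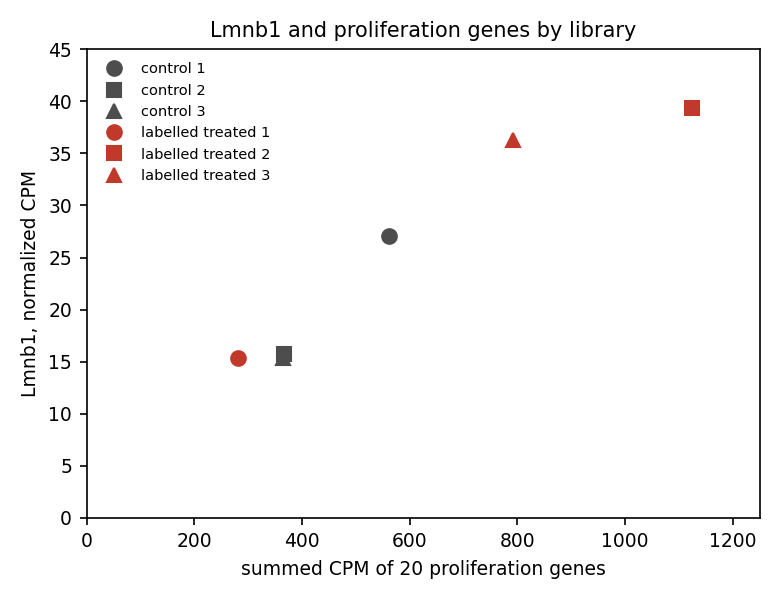
Normalized CPM of Lmnb1 in each of the 6 libraries against the summed normalized CPM of 20 proliferation genes in the same library. Labelled-treated replicates 2 and 3 are high on both axes (39.4 and 36.3 CPM of Lmnb1), and labelled-treated replicate 1 is lowest on both (15.3).

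Of 10 other lamina and chromatin genes, 2 (Lmna and Emd) had every labelled-treated library below every distinct control sample, against 21.9% of all genes, and the remaining genes overlapped between the groups. Lbr, the lamin B receptor, had 68.6, 37.5 and 38.2 CPM in the controls and 43.3, 153.2 and 127.2 in the labelled-treated libraries, an order close to that of Lmnb1. Lmna, which encodes the A-type lamins and is known to be abundant in stiff tissue, had 427, 693 and 697 CPM in the controls and 325, 210.5 and 264 in the labelled-treated libraries. The groups did not overlap for Lmna (-1.08 on the log2 scale with a standard error of 0.29, and an adjusted p of 0.105 in edgeR). Of the 10 genes edgeR called 0 (1 at an unadjusted p under 0.05), limma-voom 0, DESeq2 1, and edgeR 1 lower with the 6 libraries kept apart, and the median on the log2 scale was -0.02.

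Blood cell markers were also high in the libraries with high Lmnb1. The 12 neutrophil and precursor genes, led by S100a9 (here and below, the most abundant in the mean over the 5 distinct samples), summed to 1216, 183 and 173 CPM in the controls and 317, 3142 and 4263 in the labelled-treated libraries. The 8 erythroid genes, led by Hba-a1, summed to 2407, 3187 and 3278 CPM in the controls and 2519, 20767 and 14182 in the labelled-treated libraries. Skeletal muscle genes, led by Acta1, summed to 877, 1165 and 1175 CPM against 882, 8672 and 2206. No defining marker of these lists was at 0 in all libraries, and their part in the values of Lmnb1 and of the cell cycle genes was not tested. edgeR and limma-voom called 0 of the 11 neutrophil, 8 erythroid and 6 muscle genes tested, of which 0, 1 and 0 had an unadjusted p under 0.05 in edgeR, and DESeq2 called 3 erythroid genes.

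The secretory genes that accompany senescence gave the most calls of any list described here. Of 29 tested genes, edgeR called 14 lower and 0 higher, DESeq2 called 24, limma-voom 10 and edgeR on the 6 libraries 24. Every labelled-treated library lay below every distinct control for 26, against 21.9% of all genes, and above for 1 (Igfbp7). The median log2 fold change was -2.29, or -2.14 with 3 genes at or under 3 counts in every labelled-treated library set to that limit. Many of these genes are also expressed by activated macrophages, fibroblasts and bone cells, so the list does not by itself identify senescent cells. Without labelled-treated replicate 1 the calls over the 9 lists fell from 19 to 8, all of them secretory genes, and there were 0 without labelled-treated replicate 2 or 3, where 3109 and 2699 of all genes had an unadjusted p under 0.05.

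The chemokine gene Ccl2 had 154.4, 210.3 and 216.5 CPM in the controls and 5.93, 4.04 and 5.07 in the labelled-treated libraries. Ccl7, a chemokine gene of the same family, had 41.2, 78.7 and 71.4 CPM against 2.47, 2.41 and 2.39. Igfbp4, which encodes a binding protein that sequesters insulin-like growth factors, had 590.4, 464 and 473 CPM against 112.7, 109.0 and 104.5. The 3 genes were far apart between the groups relative to their spread. Their log2 fold changes were -5.20 (standard error 0.24), -4.59 (0.29) and -2.29 (0.15), with adjusted p of 0.00863, 0.0119 and 0.0119 from edgeR.

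Markers were also summed for cells that can make these factors. The 6 osteoclast genes, led by Ctsk, summed to 6419, 4186 and 4207 CPM in the controls and 1109, 1086 and 764 in the labelled-treated libraries, and edgeR called 4 of them lower. The 12 macrophage and monocyte genes, led by Lyz2, summed to 3178, 2158 and 2134 CPM against 718, 1998 and 2011, and edgeR called 2 lower. The other 10 were not called and 6 of the 12 overlapped between the groups, among them Lyz2, with 1831, 1266 and 1246 CPM against 271, 1241 and 1400, and Cd163, whose estimate was 1.15 on the log2 scale. T cell genes, led by Lck, summed to 24.7, 24.2 and 22.9 CPM against 8.58, 11.1 and 12.1, with 2 of 6 called lower and an estimate of 0.07 for Lck, the only one above 0. In each control library Cd2 exceeded Lck. No gene of these 3 lists was at 0 in all libraries, and their part in the lower secretory genes was not tested.

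Markers of disc cells were summed in the same way. Nucleus pulposus and notochord genes, led by Car3, summed to 1879, 589 and 584 CPM in the controls and 7337, 4102 and 3596 in the labelled-treated libraries. However, edgeR called 0 of 7 (5 at an unadjusted p under 0.05). Car3 alone had 923, 210 and 208 CPM in the controls against 2924, 2464 and 1708, and which cells it came from was not tested. Annulus fibrosus and tendon genes, led by Col1a1, summed to 55047, 77665 and 78543 CPM against 116515, 82645 and 99957. The sum of the chondrocyte genes, led by Col2a1, overlapped between the groups, with 23941, 32085 and 31894 CPM against 39169, 28357 and 42169. Of their 9 estimates, however, 6 lay below 0, and the median log2 fold change was -0.43. For 5 of 7 nucleus pulposus genes, 7 of 7 adipocyte genes and 5 of 6 Schwann cell genes every labelled-treated library lay above every distinct control sample, against 23.9% of all genes. Every labelled-treated library lay below for 4 of 7 endothelial genes and 3 of 9 chondrocyte genes, against 21.9% of all genes. Adipocyte genes summed to 513, 90.0 and 93.5 CPM in the controls and 1097, 1787 and 820 in the labelled-treated libraries, and Schwann cell genes to 461, 529 and 509 against 778, 1317 and 1848. The lists for osteoblasts, adipocytes, endothelium, Schwann cells and the B lineage, like all marker lists apart from those for osteoclasts, macrophages and T cells, held 0 called genes in edgeR on the 5 distinct samples. Over these 11 lists, 23 of 85 tested genes had an unadjusted p under 0.05, and DESeq2 called 24, limma-voom 0 and edgeR on the 6 libraries 12. Whether the mix of cells accounts for the values of Mdm2 or Gadd45a was not tested.

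Promoter sequence is shown for Cdkn1a, Gadd45a and Mdm2, textbook p53 targets chosen after their estimates were seen. RefSeq promoters of the build GRCr8, from 250 bases before to 50 after the start of the gene, were matched for 7 of the 8 members. Both strands were searched for the consensus of the p53 half-site, the TATA box (TATAAA), the CCAAT box, the GC box (GGGCGG) and the motif of AP-1 factors (TGACTCA). Capitals mark these matches in the sequences, written in the direction of transcription.
Cdkn1a promoter, chr20:7150682-7150981, plus strand: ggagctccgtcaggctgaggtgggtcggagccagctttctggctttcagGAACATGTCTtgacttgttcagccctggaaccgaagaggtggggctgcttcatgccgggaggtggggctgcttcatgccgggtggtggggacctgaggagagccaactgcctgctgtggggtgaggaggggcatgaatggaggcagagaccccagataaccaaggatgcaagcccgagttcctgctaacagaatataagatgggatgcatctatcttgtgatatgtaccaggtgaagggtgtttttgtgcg
Gadd45a promoter, chr4:97486750-97487049, minus strand: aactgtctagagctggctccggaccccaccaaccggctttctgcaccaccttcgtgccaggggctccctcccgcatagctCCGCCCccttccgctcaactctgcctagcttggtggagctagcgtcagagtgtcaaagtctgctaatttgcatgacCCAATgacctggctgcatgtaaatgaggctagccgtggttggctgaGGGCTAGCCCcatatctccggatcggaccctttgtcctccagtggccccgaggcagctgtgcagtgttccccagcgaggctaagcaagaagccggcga
Mdm2 promoter, chr7:55200742-55201041, minus strand: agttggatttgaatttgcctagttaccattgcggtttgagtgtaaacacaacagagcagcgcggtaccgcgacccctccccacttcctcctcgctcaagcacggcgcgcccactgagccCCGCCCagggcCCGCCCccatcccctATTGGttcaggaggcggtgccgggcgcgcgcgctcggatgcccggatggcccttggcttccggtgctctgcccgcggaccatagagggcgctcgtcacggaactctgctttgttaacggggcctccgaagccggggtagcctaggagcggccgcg
A p53 half-site was found in the windows of Cdkn1a, starting 201 bases before the start, and of Gadd45a, 48 bases before it, and in 7.98% of 33469 promoters of the same length. The windows of Mdm2, Cdkn2a, Cdkn2b and Lmnb1 and both windows of Gdf15 held 0 half-sites. Sequence outside the windows was not searched, so p53 sites elsewhere in any of these genes would not be seen. Gadd45a also held 1 CCAAT box and 1 GC box, and Mdm2 1 CCAAT box and 2 GC boxes, some of them on the opposite strand. The CCAAT box was present in 37.5% of all promoters, the GC box in 33.1%, the TATA box in 14.2% and the AP-1 motif in 4.63%. These matches describe the letters of the window, none overlapped another in the windows shown, and binding was not measured.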

How the data were processed

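The authors deposited counts, whole numbers of reads per Ensembl rat gene in each of 6 libraries, without normalization. The submitters' processing notes name FastQC, Trimmomatic, HISAT2, featureCounts, DESeq2 and the mouse build mm10. The build of the rat gene coordinates, how strand and shared reads were handled are not given in the sources used here. Columns named for the disc were taken as the control libraries and those named AFPTK as the labelled-treated ones.

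Genes were tested with edgeR 4.0.16 in R 4.3.3 (filterByExpr with a minimum count of 10, trimmed mean of M-values, quasi-likelihood test), after control replicates 2 and 3 had been summed, and p-values were adjusted over all tested genes by the Benjamini-Hochberg method. Normalized CPM used the factors of the 6-library fit, at which 3 counts equal 0.154 to 0.193 CPM. Poisson intervals and this limit cover counting error only. The procedure was tested on simulated data, where false calls exceeded the share that the threshold allows and were most frequent with DESeq2. DESeq2 1.42.0, limma-voom (limma 3.58.1), other normalizations and filters and each library left out were the alternatives.

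Members and lists were chosen with earlier results of these data known, and 1 listed gene is not reported here. Named genes were drawn from the members, the 3 genes of smallest p in each of 9 pathway lists, the most abundant gene of each of 14 marker lists, and the 5 genes (mean log2 CPM of at least 3, prior count 2) most like Cdkn1a and Cdkn2a. Spp1, Lrrc25, Noto, Tbxt, Perp, Igfbp7, Cd163, Cd2, Bglap, Slc22a18 and Nap1l4 were named outside this rule, most of them after their values were seen. RefSeq symbols came from GRCr8.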

Additional observations from a re-analysis of the deposited data

How the results depend on the processing

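Of the values of members under the alternatives, 89 kept their direction and their side of the threshold, 1 passed it and 17 changed sign. Of those of the 3 genes of smallest p in each of 9 pathway lists, 333 kept both, 14 passed the threshold, 30 lost it and 1 changed sign. The 575 genes called became 2572 with DESeq2, 2727 with the 6 libraries kept, and 0 to 566 with single libraries left out. The 19 pathway genes called became 45 with DESeq2, 47 with the 6 libraries kept, and 0 to 19 with single libraries left out. The 0 members called by edgeR (3 at an unadjusted p under 0.05) stayed 0 with DESeq2, limma-voom and the 6 libraries kept. The cause was not tested, apart from the smaller samples where a library was left out.

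Libraries with the same replicate number had correlations of -0.33, -0.28 and -0.08 between their deviations from the group means. The control pair counted as 1 sample leaves only 1 contrast among the controls, so these correlations are not independent. Whether libraries of the same number shared handling or a batch cannot be decided from them. With the replicate block on the 6 libraries, edgeR called 741 of 15042 genes (4.93%) and 1 of 7 members tested (Gadd45a, adjusted p 0.0482).

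The estimate of Cdkn2a (-0.02) was 0.31 with limma-voom, 0.20 with the 6 libraries, 0.38 with the replicate block and -0.26 to 1.01 with single libraries left out. That of Cdkn2b (0.00) was 0.30 with limma-voom, 0.28 with the 6 libraries, 0.43 with the replicate block, -0.0176 with size factors of DESeq2's kind, -0.0431 without a filter, -0.0224 with DESeq2 and -0.35 to 1.11 with single libraries left out. That of Cdkn1c (-0.12) was 0.0873 with the 6 libraries, 0.153 with the replicate block and -0.46 to 0.58 with single libraries left out. That of Cdkn2d (0.25) ran from -0.0774 to 0.545 in the same way. Few counts limit Cdkn2a and Gdf15, for which counting error alone is wide, and 2 distinct control samples limit every estimate.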
